A study of Mus musculus with 70 samples.

Results

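Monocyte-derived dendritic cells (moDC) and conventional dendritic cells of type 1 (cDC1) sorted from the spleens of B6g7 mice were compared by RNA sequencing. The libraries were chosen by their labelled cell type, strain and injection, which gave 6 moDC and 6 cDC1 libraries out of 70 in the series. All 12 came from B6g7 mice aged 8 to 10 weeks that had been given PBS, a buffered salt solution, by intraperitoneal injection 5 hours before the tissue was taken. B6g7 is a C57BL/6 line that carries the MHC class II haplotype of the diabetes-prone NOD mouse, and this line has an intact Rag1 gene and hence lymphocytes. NOD mice themselves, with the same age, injection and intact Rag1, gave 6 cDC1 and 5 moDC libraries for a comparison of strains. Other cell types of B6g7 (6 cDC2, 3 monocyte and 3 pDC libraries) serve to place single genes. In B6g7, each of the 2 cell types had 3 libraries sorted on 10.26.2015 (replicates 1 to 3) and 3 sorted on 01.05.2016 (replicates 4 to 6), all sequenced in the same run. The deposited table heads the cDC1 columns with CD8a and the moDC columns with MHCII. These 2 sort markers are therefore described below without weight as findings, and the rest of the gate is not given in the sources used here. No label says that the libraries of a group came from separate mice, so the p-values measure the spread between these libraries, which may be technical.

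cDC1 develop under the transcription factors IRF8 and BATF3 and the growth factor FLT3L. They take up dead cells through receptors such as CLEC9A, present the antigens on MHC class I to CD8 T cells (cross-presentation), and carry XCR1, the receptor for a chemokine that CD8 T cells and NK cells release. moDC arise from monocytes, which depend on the receptor CSF1R, and they share with macrophages the Fc receptors, complement receptors and C-type lectins that bind opsonised particles and microbes. Cells sorted as moDC can overlap with conventional dendritic cells of type 2 (cDC2), the other conventional subset, since both carry CD11b and SIRPα.

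The labels were first set against the 4 marker genes. Levels are given as counts per a fixed library total (CPM, the usual unit) scaled by the trimmed mean of M-values (TMM), here over all 47 libraries from mice with an intact Rag1, so that all cell types share a scale. Xcr1 was at 736 to 939 CPM (median 844) in cDC1 and at 3.09 to 13.4 CPM (median 5.92) in moDC. Clec9a was at 434.4 to 507 CPM (median 474.4) in cDC1 and at 12.6 to 33.5 CPM (median 16.7) in moDC. For both genes every cDC1 library stood above every moDC library, and the cDC2, monocyte and pDC (plasmacytoid dendritic cell) libraries of B6g7 stood below cDC1 as well. Csf1r was at 488.1 to 1221 CPM (median 790.3) in moDC, against 15.04 to 102 CPM (median 60.7) in cDC1 and 2506 to 2768 CPM (median 2523) in monocytes (n = 3). The moDC libraries thus lay above all cDC1 libraries and below all monocyte libraries, and those sorted on 01.05.2016 were higher than those sorted on 10.26.2015. All monocyte libraries were sorted on 01.05.2016, where moDC were at 1045 to 1221 CPM. All pDC libraries were sorted on another date, 10.16.2015, so that cell type and date cannot be told apart for them, while the cDC2 libraries came from both dates of moDC and cDC1.

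**Figure D1:**
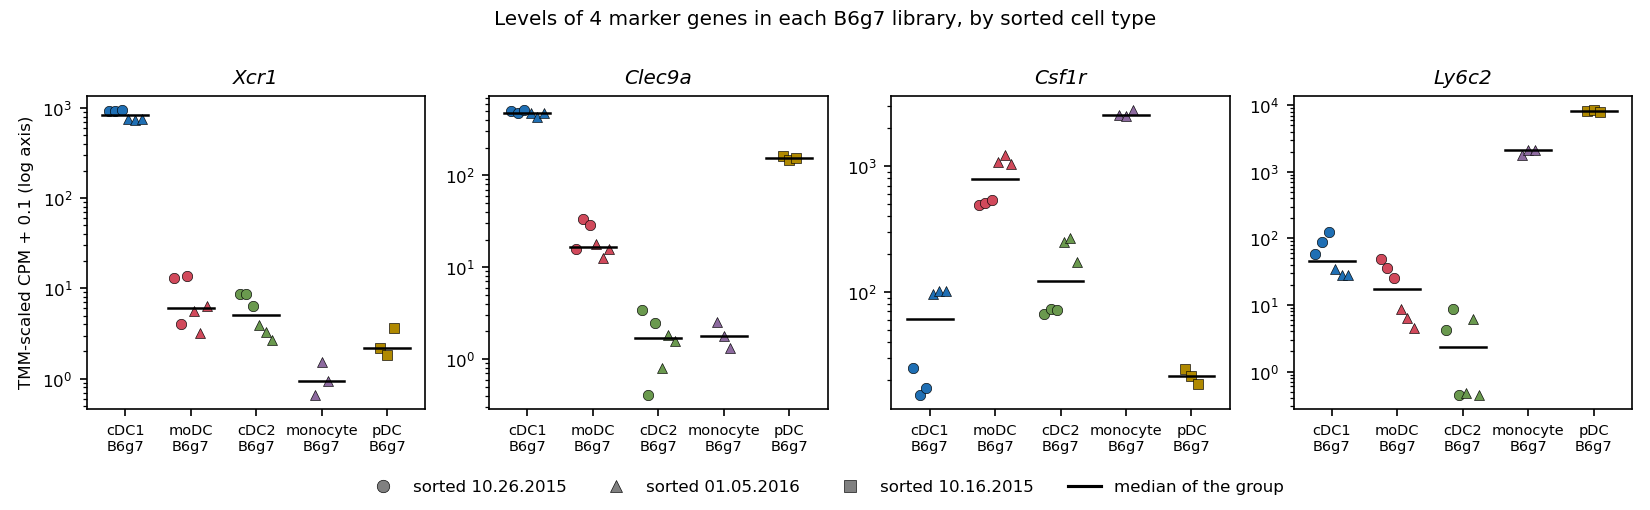
Level of Xcr1, Clec9a, Csf1r and Ly6c2 in each B6g7 library, in TMM-scaled CPM plus 0.1 on log axes. Each point is 1 library, its shape gives the sort date and the bar is the group median. Xcr1 and Clec9a separate cDC1 from moDC without overlap, Csf1r is intermediate in moDC, and Ly6c2 is lower in moDC (median 17.04 CPM) than in cDC1 (median 45.8 CPM), far under monocytes and pDC.

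Ly6c2 went against the label. It encodes a surface protein by which inflammatory monocytes, and the cells that have just left them, are recognised. It was at 4.49 to 49.2 CPM (median 17.04) in moDC, against 27.9 to 124 CPM (median 45.8) in cDC1, 1769 to 2118 CPM (median 2112) in monocytes and 8058 to 8380.3 CPM (median 8141) in pDC. The moDC and cDC1 libraries overlapped, and moDC were the lower group on each sort date. Fcgr1, which encodes the Fc receptor CD64, had a median of 12.7 CPM in moDC and 97.5 CPM in monocytes. Zbtb46, a transcription factor gene of conventional dendritic cells and their precursors, had a median of 68.8 CPM in moDC, 138 CPM in cDC1 and 2.14 CPM in monocytes. Clec4a4, the gene for the cDC2 antigen DCIR2, had a median of 122 CPM in moDC, 301 CPM in cDC2 and 6.95 CPM in monocytes. The 6 libraries are called moDC below because the labels call them so. In bulk samples, a lower share of cells with a gene and less RNA of it per cell cannot be told apart.

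Ly6c2 has a near-identical neighbour, Ly6c1, and transcripts of the 2 genes can share reads. Ly6c1 stayed at 0.0812 to 1.16 CPM (median 0.433) in cDC1 and 0 to 2.99 CPM (median 0.410) in moDC and did not pass the filter on low counts. The stretches upstream of both genes are shown because each holds GAGGAAGT, a motif bound by the myeloid factor PU.1, in an otherwise different context. They are from the RefSeq promoter table of GRCm38.p6, on the minus strand, 5′ to 3′, with the motif in capitals.
Ly6c2, chr15:75112026-75112125: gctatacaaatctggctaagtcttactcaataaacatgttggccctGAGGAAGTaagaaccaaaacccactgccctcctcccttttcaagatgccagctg
Ly6c1, chr15:75048737-75048836: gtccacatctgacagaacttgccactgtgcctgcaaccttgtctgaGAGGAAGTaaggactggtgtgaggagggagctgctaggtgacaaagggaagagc
The motif begins 108 bases before an annotated start of Ly6c2 and 127 bases before that of Ly6c1. It was present, on either strand, in 2.71% of the 12066 promoters of the genes tested here. A match is a description of the letters and no evidence of binding.

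The 12 libraries held 14255010 to 19743138 estimated counts each. They were made from 1091 to 5000 sorted cells with RNA integrity numbers of 7.2 to 10.0, and 12610 to 14083 genes had a count. Several features differed between the sort dates. Ribosomal protein genes took 7.50% to 10.5% of the counts on 10.26.2015 and 3.73% to 4.30% on 01.05.2016, and the TMM factors ran from 0.730 to 0.832 and from 1.25 to 1.35. The coefficient of the sort date passed the edgeR quasi-likelihood test for 7954 of 11943 genes (66.6%, adjusted p under 0.05), so the date was kept in the model as a block. Of 8 library features, the RNA yield had the smallest exact permutation p between the groups. It was 1539 ± 708 pg (SD, n = 6) in cDC1 and 604.5 ± 314 pg in moDC. The permutation p was 0.011, two-sided, and 0.087 after Benjamini-Hochberg adjustment over the 8 features. The permutations did not keep the sort dates apart, and the yields overlapped on 10.26.2015 and not on 01.05.2016. The 10 most abundant genes took a larger share of counts in every cDC1 library than in any moDC library of its date. The shares were 21.9% to 22.2% against 16.5% to 18.1% on 10.26.2015, and 14.4% to 14.8% against 11.9% to 13.4% on 01.05.2016.

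Marker genes of other cells stood out in some moDC libraries. A set of 10 genes of basophils and mast cells, among them the protease genes Mcpt8 and Cpa3 and the IgE receptor gene Fcer1a, was chosen after values were seen. It summed to 1.009 to 2.96 CPM in cDC1. In moDC the sum was 324.4, 381.1 and 1643 CPM on 10.26.2015 and 3.71, 18.7 and 90.7 CPM on 01.05.2016. The 3 moDC libraries of the first date thus stood above the 3 of the second, with moDC replicate 1 highest. The 7 plasma cell markers summed to 2144 CPM in moDC replicate 1, to 247.8 to 507.4 CPM in the other 5 moDC libraries and to 204.3 to 260.0 CPM in cDC1. The 11 neutrophil markers summed to 223.3 CPM in moDC replicate 1, to 16.5 to 37.1 CPM in the other moDC libraries and to 0.744 to 6.41 CPM in cDC1, with Elane at 0 in both groups. B cell markers (11 genes) summed to 136.7 to 185.5 CPM in cDC1 and 162.7 to 364.4 CPM in moDC, and T cell markers (10 genes) to 6.54 to 18.1 CPM and 18.9 to 66.4 CPM. The 10 NK cell markers (127.7 to 171.6 CPM against 120.0 to 213.7 CPM) and the 11 erythroid markers (68.3 to 1412 CPM against 45.9 to 1008 CPM) overlapped between the groups. The part of such cells in the gene differences below was not tested. Values per date are given for some genes, and not for all whose level moved with the date.

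Across all genes, 5535 of the 11943 tested (46.3%) differed between moDC and cDC1 in the quasi-likelihood test with sort date as a block. Of these, 2629 were higher in moDC (22% of those tested) and 2906 lower (24.3%). A stricter test against a change of 2-fold, called the 2-fold test below, passed 1492 genes (12.5%), 874 higher (7.32%) and 618 lower (5.17%). The 6 and 6 libraries did not overlap for 1873 genes (15.7%), 935 with moDC above (7.83%) and 938 with moDC below (7.85%). Fitted alone, the libraries of 10.26.2015 gave 4396 calls among 11068 genes (39.7%) and those of 01.05.2016 gave 4642 among 11571 (40.1%). Of the 1492 genes past the 2-fold test, 1278 had enough counts to be tested on both dates, and 1278 changed in the same direction on both. This is no separate support, since the genes were picked by their change over the same libraries. Without moDC replicate 1, the library richest in genes of other cells, 5344 genes passed the plain test and 1443 the 2-fold test. The median log2 change over all genes was -0.02, moDC minus cDC1. Counts of list members that rose or fell in the plain test are to be read beside the shares over all genes, 22% and 24.3%. Log2 changes below are in that direction, with their standard error (SE), and adjusted p-values are from edgeR over all genes. From here on, CPM are scaled over the 12 libraries, except in sentences that set other cell types or NOD mice beside them, where the scale is again that of the 47 libraries and is named.

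**Figure D2:**
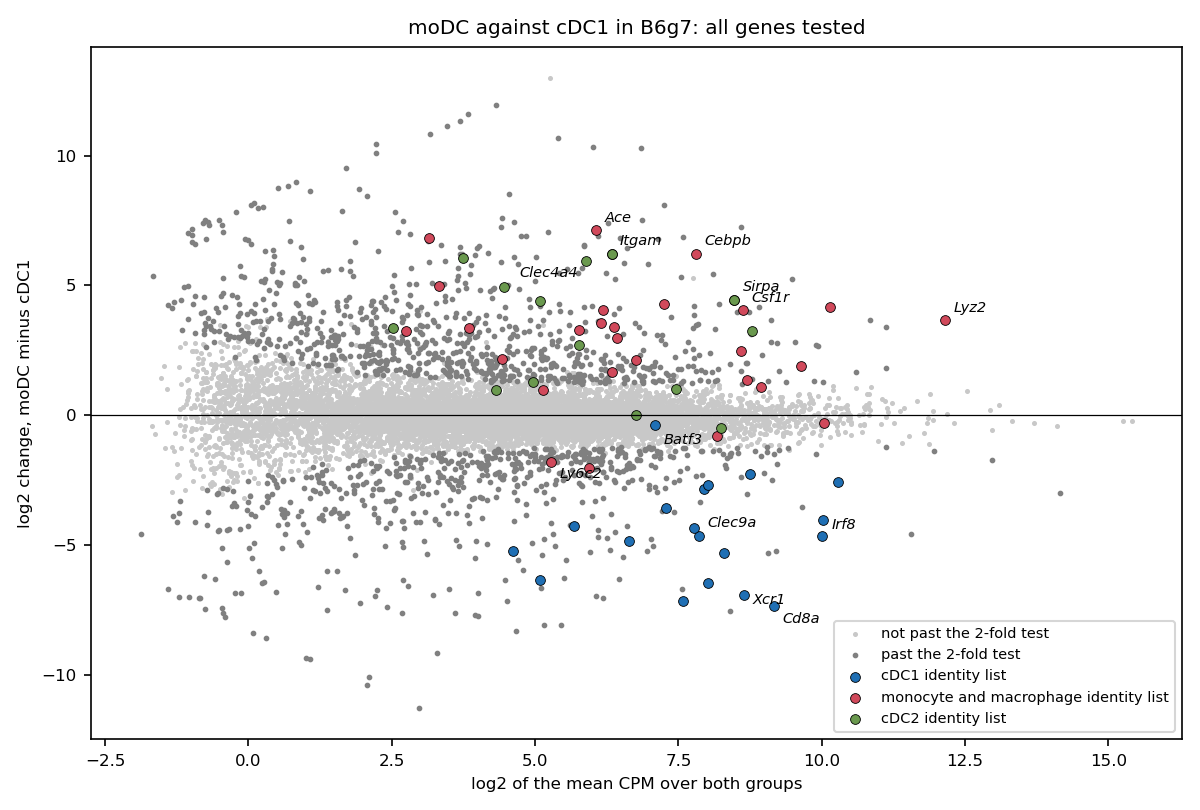
Log2 change between moDC and cDC1 (vertical axis) against the log2 of the mean CPM over both groups (horizontal axis) for each gene tested. Dark points passed the 2-fold test. Coloured points are the cDC1, monocyte and macrophage, and cDC2 identity lists. The cDC1 list lies below 0, with Batf3 nearest to it, while Ly6c2 lies below 0 among the monocyte genes.

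All 19 members of the cDC1 identity list fell, the sort marker Cd8a among them. Of these members 18 passed the 2-fold test, and the list median was a log2 change of -4.62. The summed level of all 19 was 11234 to 14519 CPM in cDC1 and 954.3 to 1174 CPM in moDC. Irf8, the factor on which cDC1 depend, was at 1693 to 2206 CPM (median 1977) in cDC1 and 93.1 to 155 CPM (median 117) in moDC, a log2 change of -4.04 ± 0.09 (adjusted p = 4.0e-17). The moDC libraries held it at even levels, far from the lowest cDC1 library. Batf3, its partner in cDC1, was at 69.00 to 251 CPM (median 141) and 41.2 to 245 CPM (median 111), and the groups overlapped. Its log2 change of -0.38 ± 0.12 passed the plain test (adjusted p = 0.014) and not the 2-fold test, the exception in the list. It no longer passed when cDC1 replicate 4, 5 or 6 or moDC replicate 4 or 5 was left out (adjusted p of 0.059 to 0.091).

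Among the surface and uptake genes of the list, Xcr1 changed by -6.92 ± 0.30 and Clec9a by -4.63 ± 0.18. Cadm1, an adhesion molecule used to sort cDC1 across species, was at 494 to 683 CPM (median 623) in cDC1 and 10.28 to 23.7 CPM (median 15.1) in moDC (log2 change -5.28 ± 0.16). Itgae, the αE integrin chain CD103 that binds E-cadherin, was at 36.4 to 106 CPM (median 63.5) in cDC1 and under 2 CPM in every moDC library (log2 change -6.33 ± 0.31). No library of one group reached the other for either gene. Cd8a, the sort marker, was at 623 to 1641 CPM (median 1176) and 2.18 to 21.8 CPM (median 5.08), without overlap. The largest falls of the remaining members were of Gcsam (-7.16 ± 0.51), known from germinal centre B cells, of Rab7b (-6.43 ± 0.37), a small GTPase of endosomes, and of Septin3 (-5.23 ± 0.24), a filament protein.

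Monocyte and macrophage identity genes moved the other way: 24 of 29 tested rose, 3 fell and 2 did not pass, with a median of 3.27. Csf1r rose by 4.04 ± 0.21 on the log2 scale (adjusted p = 1.1e-09). Its change was 4.72 among the 10.26.2015 libraries and 3.50 among those of 01.05.2016, and the difference between dates passed its test (adjusted p = 0.0040). Lyz2, which encodes the lysozyme of phagocytes, was at 362 to 943 CPM (median 605) in cDC1 and 4052 to 14727 CPM (median 7726) in moDC (log2 change 3.67 ± 0.12). Adgre1, the gene of the macrophage antigen F4/80, was at 10.4 to 22.8 CPM (median 13.7) and 230.4 to 339 CPM (median 291), a log2 change of 4.30 ± 0.15. Both genes were several times higher in the lowest moDC library than in the highest cDC1 library. Ace, for angiotensin-converting enzyme, an enzyme also found on patrolling monocytes, rose by 7.14 ± 0.29 and the C5a receptor gene C5ar1 by 6.83 ± 0.73. The chemokine receptor genes by which monocyte subsets are told apart both rose: Ccr2 by 2.13 ± 0.13 and Cx3cr1 by 3.39 ± 0.19. Cd14, a coreceptor for lipopolysaccharide, rose by 0.98 ± 0.13, with overlapping libraries. Among the 3 members that fell were Ly6c2 (-1.78 ± 0.24, adjusted p = 2.1e-05) and Treml4, a receptor for dead cells (-0.80 ± 0.12). Ly6c2 was not the lowest member, as the lowest log2 change in the list was -2.03.

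Of the 14 cDC2 identity genes 12 rose, with a median of 3.30, although neither group was labelled cDC2. Sirpa, the inhibitory receptor for CD47, was at 11.09 to 53.7 CPM (median 32.4) in cDC1 and 302 to 1102 CPM (median 649) in moDC (log2 change 4.46 ± 0.10). Itgam, the gene for CD11b, was at 0.161 to 3.81 CPM (median 2.18) and 104 to 238 CPM (median 143), a log2 change of 6.22 ± 0.24. Clec4a4 rose by 5.95 ± 0.33, Mgl2, a galactose-binding lectin gene, by 6.07 ± 0.57, and Dtx1, a regulator and target of NOTCH, by 4.92 ± 0.29. These genes had no overlap between the groups. The list is not a separate lineage score, since Sirpa and Itgam are also in the monocyte list. On the scale of the 47 libraries, Mgl2 had a median of 27.1 CPM in moDC and 0.201 CPM in cDC2, and Dtx1 45.9 CPM in moDC and 335.8 CPM in cDC2. Clec12a, which encodes an inhibitory lectin of myeloid cells, was the member that fell (-0.48 ± 0.08).

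Genes shared by dendritic cells moved both ways. In the core dendritic cell list 14 of 26 fell and 5 rose (median -0.51). Flt3, the receptor for FLT3L, was at 591 to 649 CPM (median 619) in cDC1 and 208 to 455 CPM (median 353.7) in moDC (log2 change -0.89 ± 0.12). Zbtb46 was at 90.8 to 170.9 CPM (median 128) and 39.1 to 100.5 CPM (median 61.5), a log2 change of -1.04 ± 0.10, and the groups overlapped. The integrin gene Itgax, for CD11c, was higher in moDC (0.69 ± 0.10) and Dpp4 lower (-0.67 ± 0.09). The larger changes in the list were falls of Btla, an inhibitory receptor (-2.84 ± 0.10), and of the metalloproteinase gene Adam19 (-2.68 ± 0.11), and a rise of the MHC class II gene H2-Eb2 (2.21 ± 0.15).

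Core macrophage genes rose in 30 of 38 cases and fell in 3 (median 1.48). Fcgr1 was at 0.325 to 4.96 CPM (median 0.989) in cDC1 and 5.21 to 29.9 CPM (median 11.6) in moDC, a low level in both (log2 change 3.20 ± 0.41). Mertk, a receptor for dead cells that with CD64 marks macrophages, was at 0 to 4.79 CPM (median 2.13) and 0.313 to 4.64 CPM (median 2.66) and did not pass (0.31 ± 0.53, adjusted p = 0.67). The lipopolysaccharide receptor gene Tlr4 was low in both groups, at 3.14 to 9.66 CPM (median 6.29) and 4.12 to 14.6 CPM (median 9.91). The adaptor gene Dok3 (5.82 ± 0.24) and Csf3r, the receptor for granulocyte colony-stimulating factor (6.24 ± 0.41), rose most. On the scale of the 47 libraries, Csf3r had a median of 38.1 CPM in moDC and 309 CPM in monocytes.

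**Figure D3:**
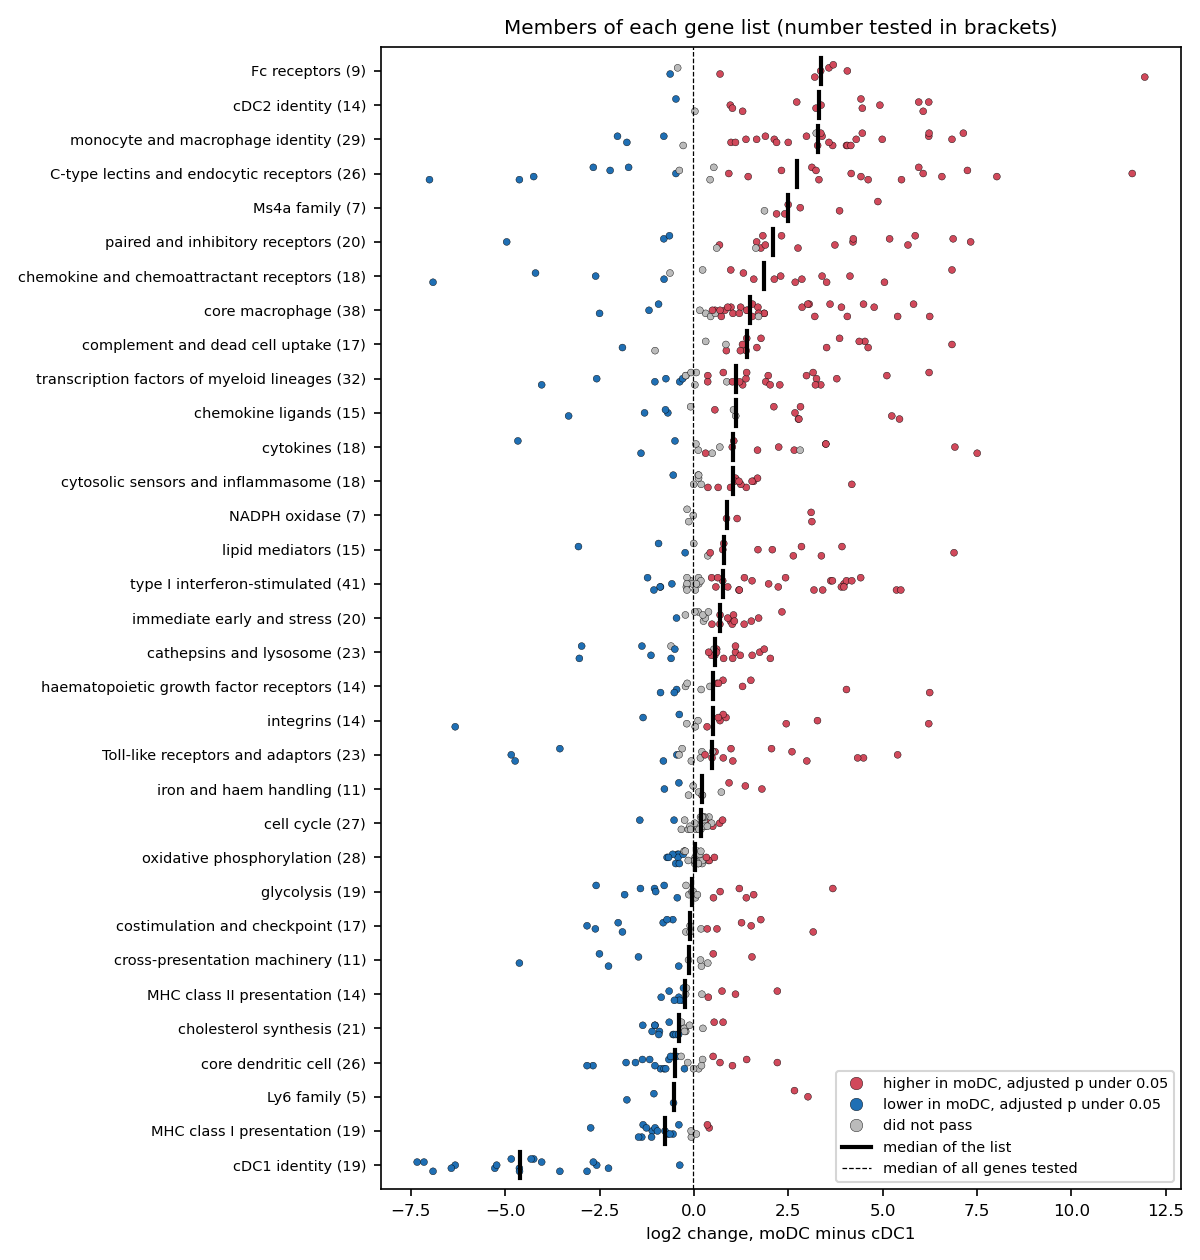
Log2 change (moDC minus cDC1) of each tested member of the gene lists, with the number tested in brackets. Red points were higher and blue points lower in moDC at an adjusted p under 0.05, grey points did not pass, and the bar is the median of the list. Lists of markers of other cell types are left out. Among the lists drawn, the cDC1 list has the lowest median (-4.62) and the Fc receptors the highest (3.36), beside a dashed line at the median of all genes.

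Transcription factors of the myeloid lineages were mostly higher in moDC: 20 of 32 rose, 6 fell and 6 did not pass (median 1.11). Cebpb, which drives monocyte survival and inflammatory genes, was at 3.78 to 7.35 CPM (median 5.06) in cDC1 and 197 to 679.9 CPM (median 432) in moDC (log2 change 6.23 ± 0.17, adjusted p = 5.6e-15). The lowest moDC library was far above the highest cDC1 library. On the scale of the 47 libraries the median was 479 CPM in moDC and 2277.4 CPM in monocytes. Its relative Cebpa rose by 1.97 ± 0.27. Zeb2, a repressor that steers precursors away from the cDC1 fate, was at 4.84 to 18.4 CPM (median 11.8) and 74.0 to 143 CPM (median 98.5), a log2 change of 3.24 ± 0.16. Id3, an inhibitor of E proteins, rose by 5.11 ± 0.30. Irf4, a factor of cDC2 and of moDC, rose by 1.29 ± 0.18, with overlapping libraries. Spi1, the gene for PU.1, was at 270.04 to 523 CPM (median 408) and 426.4 to 588 CPM (median 499.0) and differed by 0.36 ± 0.10, with overlap.

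Promoters of the factors at the centre of this difference were searched for motifs of myeloid factors, on both strands over the 250 bases before each start. Of 10 transcription factor genes searched for 6 motifs, 6 (Batf3, Irf4, Id2, Nfil3, Cebpa and Cebpb) held none in any annotated promoter. The 3 below are shown as examples of those that held one. Irf8 and Zbtb46 were lower in moDC and Zeb2 higher. Capitals mark TCAGCA in Irf8, the AP-1 site TGANTCA in Zbtb46, and the C/EBP site TTGCNNAA in Zeb2. TCAGCA is the reverse complement of TGCTGA, an arm of the longer MARE element bound by MAF factors.
Irf8, chr8:120738435-120738534, plus strand: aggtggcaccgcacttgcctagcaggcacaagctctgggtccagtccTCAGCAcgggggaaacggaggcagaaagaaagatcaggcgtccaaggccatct
Zbtb46, chr2:181424396-181424495, minus strand: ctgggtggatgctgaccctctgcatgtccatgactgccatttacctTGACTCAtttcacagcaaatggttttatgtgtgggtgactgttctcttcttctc
Zeb2, chr2:45117593-45117692, minus strand: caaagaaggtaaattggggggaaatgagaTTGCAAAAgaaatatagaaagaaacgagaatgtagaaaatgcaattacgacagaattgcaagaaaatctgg
The Irf8 stretch precedes 1 of 2 annotated starts and the Zeb2 stretch 1 of 4. The marked motifs do not tell the genes apart, since the Zbtb46 stretch also holds TGCTGA, left in lower case, and 1 Zeb2 promoter holds an AP-1 site. Over all promoters, 12.2% of the 931 of genes higher in moDC past the 2-fold test held a C/EBP site, against 7.34% of the 627 of lower genes and 7.70% of all 12066. The MARE arm TGCTGA was in 17.2% of the higher, 11.5% of the lower and 12.4% of all promoters. For AP-1 the shares were 6.77%, 6.22% and 4.43%, for the PU.1 motif 3.33%, 3.51% and 2.71%, and for the composite of GGAA and GAAA separated by 2 bases 2.90%, 2.07% and 2.01%. The shares were not tested, and some genes have more than 1 promoter.

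Of 14 receptors for haematopoietic growth factors 7 rose and 3 fell, Flt3 among the latter. The chains of the receptor for GM-CSF, the cytokine used to grow dendritic cells from monocytes in culture, were near each other: Csf2ra was at 172 to 217 CPM (median 200.5) in cDC1 and 129.6 to 184 CPM (median 179) in moDC and did not pass (-0.23 ± 0.10, adjusted p = 0.070, or 0.049 without moDC replicate 3), and Csf2rb rose by 0.61 ± 0.10. The interleukin-6 receptor gene Il6ra rose by 1.51 ± 0.14.

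Toll-like receptor (TLR) genes moved in both directions. Tlr3, the endosomal sensor of double-stranded RNA, was at 145 to 242 CPM (median 187) in cDC1 and 2.31 to 9.62 CPM (median 7.07) in moDC (log2 change -4.84 ± 0.25). Tlr11 and Tlr12, which together sense the profilin of protozoa, had log2 changes of -3.55 ± 0.16 and -4.74 ± 0.30. The single-stranded RNA sensors went the other way: Tlr7 was at 0.787 to 4.42 CPM (median 2.90) and 39.9 to 74.4 CPM (median 51.3), a log2 change of 4.49 ± 0.23, and Tlr8 rose by 5.39 ± 0.55. None of these 5 genes overlapped between the groups. Tlr2, a sensor of bacterial lipoproteins, rose by 0.77 ± 0.11, and Tlr13, a sensor of bacterial ribosomal RNA, by 0.48 ± 0.12, both with overlap. In the whole list of receptors and adaptors, 12 of 23 rose and 5 fell.

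Of 18 genes of cytosolic sensing and the inflammasome, 12 rose and 1 fell. Ddx58, the gene of the RNA sensor RIG-I, was at 0 to 3.46 CPM (median 2.63) in cDC1 and 22.5 to 69.6 CPM (median 41.2) in moDC (log2 change 4.18 ± 0.39). Nlrp3, an inflammasome sensor, rose by 1.58 ± 0.20 and the nucleic acid sensor gene Zbp1 by 1.54 ± 0.14. Aim2, which binds cytosolic DNA, was the gene that fell (-0.55 ± 0.14).

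Chemokine and chemoattractant receptors rose in 12 of 18 cases and fell in 4. Besides C5ar1, Ccr2 and Cx3cr1, the receptor gene Ccr6 was at 0 to 1.10 CPM (median 0.325) in cDC1 and 11.66 to 17.8 CPM (median 14.9) in moDC (log2 change 5.05 ± 0.41). Ccr7, which guides dendritic cells to T cell zones, was at 417 to 604 CPM (median 446.9) and 196 to 406 CPM (median 283) without overlap (log2 change -0.79 ± 0.16).

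Among 15 chemokine genes 8 rose and 4 fell. Cxcl9, which draws CXCR3-bearing T cells, was at 195 to 675 CPM (median 404.6) in cDC1 and 13.8 to 90.7 CPM (median 43.7) in moDC (log2 change -3.32 ± 0.13). Cxcl16, a ligand that also acts as a scavenger receptor, fell by 0.76. Ccl9 was at 5.87 to 17.5 CPM (median 10.25) and 241 to 919 CPM (median 523), a log2 change of 5.44 ± 0.36, with every moDC library above every cDC1 library. Ccl3, a ligand of CCR1, was spread widely in moDC, at 2173, 2532 and 3497 CPM on 10.26.2015 and 55.2, 77.9 and 86.0 CPM on 01.05.2016, against 1.07 to 59.6 CPM (median 12.2) in cDC1. Its log2 change was 5.24 ± 0.51, or 6.02 and 4.38 on the separate dates, and its groups overlapped only across dates. Ccl6 rose by 2.82 ± 0.34, and this change differed between the dates, at 3.84 and 1.90 (adjusted p = 4.8e-05). The libraries of 10.26.2015 with the higher Ccl3 and Ccl6 are those with the higher basophil and mast cell genes.

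The cytokine list (18 tested) had 10 genes higher and 3 lower. Il12b, the p40 chain of the T helper 1 cytokine IL-12, was at 107 to 179 CPM (median 119.8) in cDC1 and 1.04 to 10.33 CPM (median 4.73) in moDC (log2 change -4.67 ± 0.53). Il1rn, the interleukin-1 receptor antagonist, was at 0 to 0.731 CPM (median 0.429) and 38.98 to 76.9 CPM (median 50.1), a log2 change of 6.91 ± 0.33. Both genes separated the groups without overlap. Il1b was at 179 to 1768 CPM (median 679) and 704 to 4343 CPM (median 2059), a log2 change of 1.68 ± 0.13 and rose on both dates (1.46 and 2.00). Il6 was at 100.9, 104 and 198 CPM in the moDC libraries of 10.26.2015 and at 0.568, 1.78 and 2.92 CPM in those of 01.05.2016, against 0.393 to 5.78 CPM (median 1.47) in cDC1. Its log2 change of 3.49 ± 1.08 passed over both dates (adjusted p = 0.025), was 0.47 on 01.05.2016 alone, and differed between the dates (adjusted p = 0.036). It did not pass when cDC1 replicate 1, 2 or 3 was left out (adjusted p of 0.052 to 0.082) or with the replicate number as block (adjusted p = 0.13). Osm, for oncostatin M, was at 263, 332 and 733 CPM and 14.9, 25.7 and 27.95 CPM in moDC by date, and at 0.0807 to 1.42 CPM (median 0.464) in cDC1 (log2 change 7.50 ± 0.98). Tnfsf13, the B cell factor APRIL, rose by 3.49 ± 0.24, and Tnf, with overlap, fell by 0.50 on the log2 scale (adjusted p = 0.017).

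MHC class II genes were the highest expressed of the antigen-presentation genes in both groups, summing to 60651 to 129589 CPM in cDC1 and 65860.1 to 92850.1 CPM in moDC. H2-Aa was at 7724 to 22566 CPM (median 14554) in cDC1 and 7430.0 to 15502 CPM (median 11772) in moDC (log2 change -0.29 ± 0.09). Ciita, the master regulator of the class, fell by 0.52, and the groups overlapped for both genes. Ctss, the cathepsin that trims the invariant chain, rose by 1.10 ± 0.08 and the ubiquitin ligase gene Marchf1, which removes class II from the surface, fell by 0.87. The list median was -0.25, and it was -0.47 on 10.26.2015 and 0.08 on 01.05.2016, so its sign turned with the date.

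MHC class I presentation was lower in moDC in 14 of 19 genes and higher in 2 (median -0.77). The peptide transporter gene Tap1 was at 293.9 to 509.4 CPM (median 379.8) in cDC1 and 110.0 to 206 CPM (median 154) in moDC (log2 change -1.35 ± 0.08), and its partner Tap2 fell by 1.38. Pdia3, a chaperone of peptide loading, was at 947 to 1942 CPM (median 1399.6) and 384 to 684 CPM (median 458), a log2 change of -1.47 ± 0.10. Cd1d1, which presents lipids to NKT cells, was at 218 to 257 CPM (median 243) and 25.1 to 45.95 CPM (median 37.8), a log2 change of -2.74 ± 0.13. These 4 genes had no overlap, while the class I heavy chain genes H2-K1 (-0.07 ± 0.10) and H2-D1 (0.06 ± 0.08) did not pass. The aminopeptidase gene Erap1 fell by 0.69.

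Of 11 genes tied to cross-presentation 5 fell and 2 rose. Wdfy4, which cDC1 need to cross-present cell-associated antigen, was at 373 to 1040.2 CPM (median 699) in cDC1 and 60.9 to 229.6 CPM (median 151) in moDC (log2 change -2.27 ± 0.11). Rab43, a small GTPase tied to the same process, was at 305.1 to 591 CPM (median 447.5) and 92.2 to 286 CPM (median 155), a log2 change of -1.47 ± 0.10. Tfeb, a factor of lysosome genes that limits cross-presentation, rose by 1.53 ± 0.10. The oxidase of phagosomes rose in 4 of its 7 genes and fell in none: its catalytic chain Cybb was at 61.5 to 125 CPM (median 92.1) and 629 to 924 CPM (median 785), a log2 change of 3.12 ± 0.11.

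Costimulatory and checkpoint genes split, with 6 of 17 higher and 7 lower. Cd86, a ligand of CD28, was at 384.6 to 513.9 CPM (median 435) in cDC1 and 59.4 to 87.8 CPM (median 69.3) in moDC (log2 change -2.61 ± 0.11). Havcr2, the gene of the checkpoint receptor TIM-3, fell by 1.90. Cd200, which encodes an inhibitory ligand, fell by 2.01. The ligands of the checkpoint receptor PD-1 rose: Cd274 (PD-L1) was at 20.1 to 47.96 CPM (median 36.2) and 73.6 to 161 CPM (median 110.4), a log2 change of 1.77 ± 0.12, and Pdcd1lg2 (PD-L2) rose by 3.16 ± 0.20. Cd40 was at 81.2 to 197 CPM (median 119) and 83.3 to 147 CPM (median 115) and did not pass (-0.10 ± 0.11, adjusted p = 0.49).

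Fc receptors, which bind antibody-coated particles, were higher in moDC in 7 of 9 cases and lower in 1. The activating receptor genes Fcgr3 and Fcgr4 were at 60.97 to 232 CPM (median 127) and 36.1 to 248 CPM (median 123) in moDC. In cDC1 they were at 5.54 to 9.05 CPM (median 7.198) and 5.97 to 13.5 CPM (median 8.39). The log2 changes were 4.06 ± 0.24 and 3.57 ± 0.29. Their shared signalling chain Fcer1g rose by 3.69 ± 0.21, more on 10.26.2015 (4.36) than on 01.05.2016 (3.10), and the difference passed (adjusted p = 0.0011). The same chain serves the IgE receptor of basophils. The inhibitory receptor Fcgr2b, by contrast, was present in both groups, at 89.5 to 142 CPM (median 111) and 130.0 to 272 CPM (median 178), and rose by 0.69 ± 0.10, with overlap. Fcgrt, which recycles IgG, fell by 0.63. Fcer1a, the IgE receptor chain of basophils and mast cells, had no count in cDC1 and was at 50.00, 63.3 and 121 CPM on 10.26.2015 and 0, 1.12 and 2.72 CPM on 01.05.2016 in moDC. It was at least 1341-fold higher in the moDC mean, with the cDC1 limit at 3 counts over the group, or at least 792-fold without moDC replicate 1.

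C-type lectins and endocytic receptors rose in 16 of 26 cases and fell in 7 (median 2.72). Clec7a, the gene of the β-glucan receptor Dectin-1, was at 37.8 to 67.8 CPM (median 49.9) in cDC1 and 394 to 663 CPM (median 479.7) in moDC (log2 change 3.31 ± 0.10). Clec4a1 rose by 6.57 ± 0.21, Clec4a3 by 7.24 ± 0.35 and Cd209a, a DC-SIGN relative, by 3.23 ± 0.12. The Clec4a genes are close relatives in 1 cluster, and estimated counts may divide reads between them imperfectly. Clec4e, which encodes Mincle, a receptor for mycobacterial glycolipid, had no count in cDC1 and was at 4.31 to 64.3 CPM (median 19.6) in moDC. Its moDC mean was at least 961-fold above the cDC1 limit. Cd207, the gene of langerin, was at 81.0 to 205 CPM (median 144) in cDC1 and 0.234 to 3.96 CPM (median 0.631) in moDC (log2 change -7.01 ± 0.34).

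Paired activating and inhibitory receptors rose in 15 of 20 genes and fell in 3. Sirpb1a was at 1.17 to 5.25 CPM (median 3.32) in cDC1 and 251 to 524 CPM (median 379.6) in moDC (log2 change 6.87 ± 0.15). Cd300ld rose by 5.86 ± 0.24, Cd300lf by 2.75 ± 0.21 and Trem1, an amplifier of inflammation, by 5.67 ± 0.97. The inhibitory receptor genes Lilrb4a and Pirb rose by 2.32 ± 0.26 and 0.67 ± 0.09, with overlap for Pirb. Siglech, better known from pDC, fell by 4.96. The tetraspan genes of the Ms4a family rose in 6 of 7 cases, led by Ms4a6d (4.87 ± 0.55) and Ms4a4c (3.86 ± 0.15), with Ms4a6c at 69.6 to 156 CPM (median 104) in cDC1 and 263 to 1085 CPM (median 663) in moDC.

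Integrins rose in 8 of 14 cases, Itgam most and then Itgb5 (3.27 ± 0.31), and fell in 3. Itgal, a chain of LFA-1, rose by 0.77 ± 0.17 and Itgb7, the partner of αE, by 0.64 ± 0.10. Of 17 genes of complement and dead cell uptake 13 rose and 1 fell. C3, the central complement component, was at 0.323 to 3.97 CPM (median 0.909) in cDC1 and 20.2 to 52.04 CPM (median 36.1) in moDC (log2 change 4.53 ± 0.29), and factor B (Cfb) rose by 3.86 ± 0.22. The scavenger receptor gene Msr1 rose by 4.61 ± 0.30 and the dead cell receptor gene Axl by 1.77 ± 0.29. C1qa was at 14.7 to 39.6 CPM (median 21.5) and 40.5 to 109 CPM (median 54.4), a log2 change of 1.38 ± 0.24. The 13 markers of red pulp macrophages, which include C1qa, Adgre1 and Hpgd, summed to 686.9 to 953.7 CPM in cDC1 and 1091 to 2281 CPM in moDC, with 6 higher and 1 lower. Their defining factor gene Spic rose by 1.21 ± 0.23.

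Type I interferon-stimulated genes were divided. Of 41 tested, 24 rose, 5 fell and 12 did not pass, with a median of 0.76. Irf7, a factor that amplifies the interferon response, was at 113 to 185 CPM (median 133) in cDC1 and 112 to 205 CPM (median 136) in moDC and did not pass (0.03 ± 0.12, adjusted p = 0.85). The 6 genes that follow are examples from those that rose. Ifit3, of the antiviral IFIT family, was at 2.11 to 9.99 CPM (median 4.18) and 29.7 to 94.5 CPM (median 74.5), a log2 change of 3.97 ± 0.43. Oas2, which makes the activator of RNase L, was at 0 to 1.65 CPM (median 0.478) and 14.1 to 30.1 CPM (median 25.8), a log2 change of 5.36 ± 0.46. Rtp4 rose by 5.48 ± 0.37, Oas1g by 4.42 ± 0.51, Ifitm3, a block to viral entry, by 3.41 ± 0.31, and Isg15, a ubiquitin-like modifier, by 1.33 ± 0.12. Libraries overlapped for Isg15 and not for the other 5. Ifit3 shares sequence with Ifit3b, so its reads may be divided between them imperfectly. On the scale of the 47 libraries, Ifit3 had a median of 83.1 CPM in moDC, 101.2 CPM in cDC2 and 4.50 CPM in cDC1.

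Upstream stretches of Ifit3 and Isg15 are shown because they hold the core of the interferon-stimulated response element, a pair of GAAA repeats separated by 2 bases (or TTTC on the other strand), in capitals.
Ifit3, chr19:34583328-34583427, plus strand: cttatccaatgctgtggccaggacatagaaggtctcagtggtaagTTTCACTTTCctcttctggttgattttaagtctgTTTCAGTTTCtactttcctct
Isg15, chr4:156200842-156200941, minus strand: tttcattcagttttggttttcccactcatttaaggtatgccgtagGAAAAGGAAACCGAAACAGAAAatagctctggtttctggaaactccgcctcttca
Ifit3 held the element 2 times on the opposite strand, and Isg15 held 3 overlapping matches. Of the 34 promoters of the list's tested genes 35.3% held it, against 2.87% of all promoters. Among the genes of the list that rose, 8 of 19 promoters (42.1%) held it. Over all genes past the 2-fold test the share was 6.23% of the promoters of higher genes and 3.19% of those of lower genes.

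**Figure D4:**
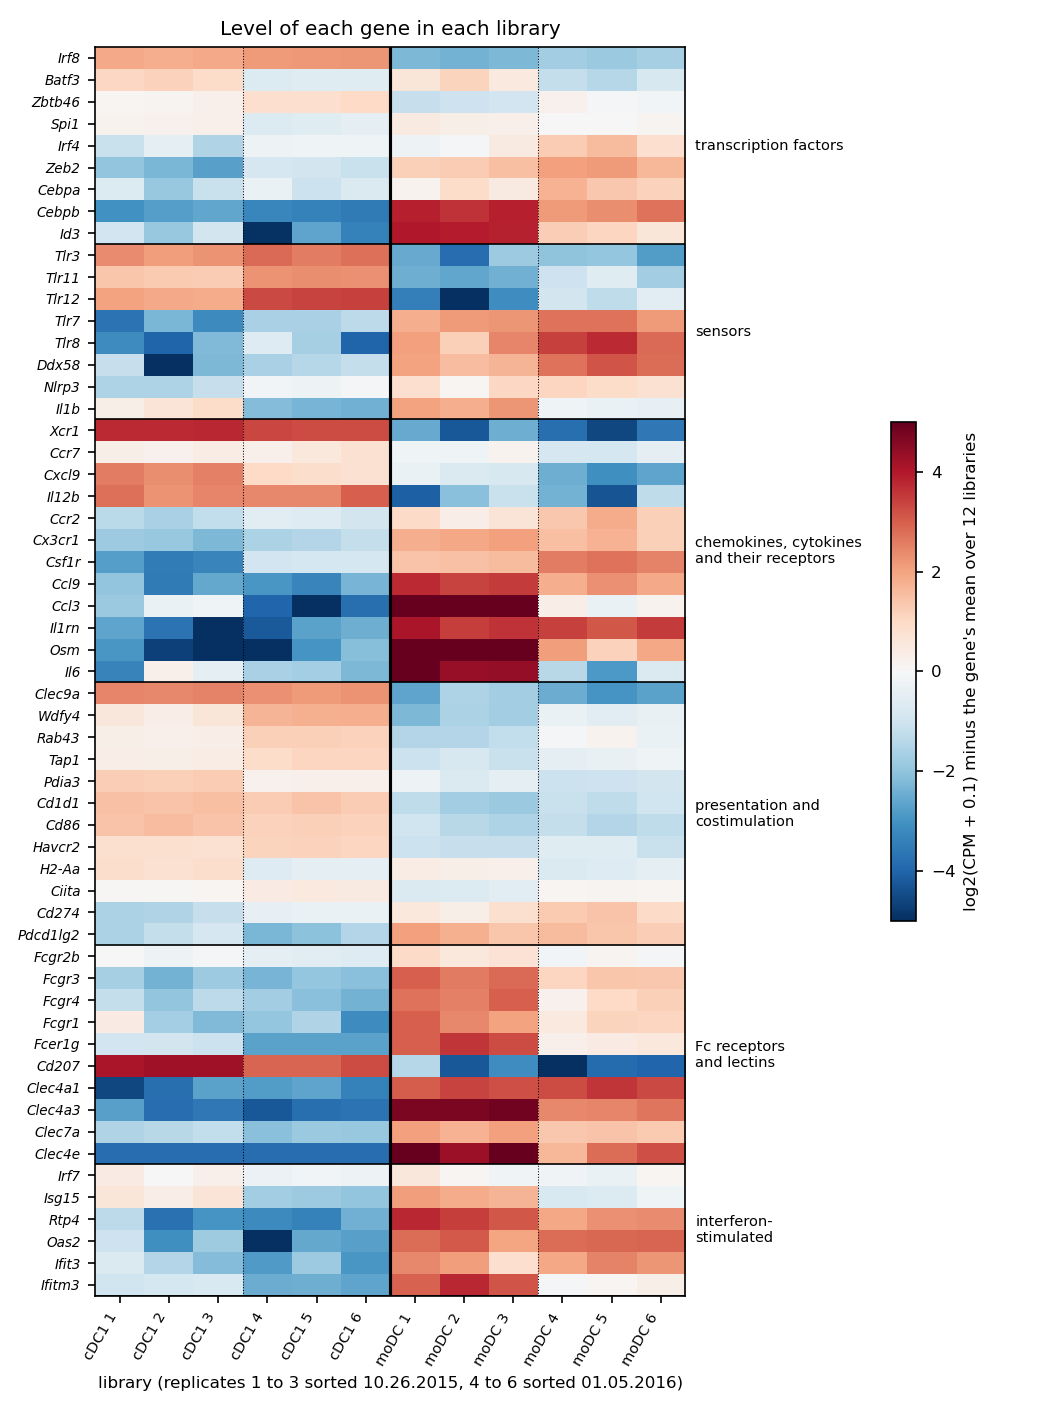
Level of genes named here in each of the 12 libraries, as log2(CPM + 0.1) minus the mean of the gene over the 12 libraries (red above, blue below). Columns are libraries by cell type and sort date, rows are grouped by role. Irf8, Tlr3, Xcr1, Clec9a and Cd207 are high in all cDC1 libraries, Cebpb and Clec4a3 in all moDC libraries, and Il6, Osm and Ccl3 stand out in moDC replicates 1 to 3.

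Lipid mediator genes rose in 10 of 15 cases and fell in 3. Ltb4r1, the high-affinity receptor for leukotriene B4, was at 0.0509 to 1.29 CPM (median 0.204) in cDC1 and 42.9 to 71.2 CPM (median 58.8) in moDC (log2 change 6.89 ± 0.41). Ptgs2, the inducible cyclooxygenase, was at 6.61 to 18.1 CPM (median 8.51) and 93.4 to 223 CPM (median 148), a log2 change of 3.92 ± 0.25, and Hpgd, which degrades prostaglandins, rose by 3.37 ± 0.15. The 3 genes separated the groups. Alox5, the enzyme that starts leukotriene synthesis, rose by 2.63 ± 0.71 over both dates and differed between them (4.75 and 1.17, adjusted p = 0.024).

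Lysosomal genes rose in 15 of 23 cases and fell in 6. Ctsa, for a serine carboxypeptidase, rose by 2.02 ± 0.08, Ctsl by 1.54 ± 0.15, Lgmn, for asparagine endopeptidase, by 1.02 ± 0.09 and Ctsb by 0.55 ± 0.09. The cathepsin inhibitor gene Cst3, the most abundant gene of the list, was at 13564 to 52476 CPM (median 31321) in cDC1 and 1328 to 8562 CPM (median 4328) in moDC (log2 change -2.98 ± 0.11). Gusb, for β-glucuronidase, was at 696 to 810.1 CPM (median 729.2) and 82.4 to 106 CPM (median 88.2), a log2 change of -3.04 ± 0.08. Neither overlapped.

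Cholesterol synthesis genes fell in 11 of 21 cases and rose in 2 (median -0.41). Sqle was at 25.6 to 46.7 CPM (median 28.7) in cDC1 and 12.2 to 23.2 CPM (median 13.1) in moDC (log2 change -1.04 ± 0.18). Of 19 glycolysis genes 6 rose and 7 fell: the hexokinase gene Hk3 was at 69.5 to 113 CPM (median 94.7) and 13.7 to 18.2 CPM (median 15.2), a log2 change of -2.59 ± 0.13, and the lactate exporter gene Slc16a3 rose by 3.68 ± 0.29. Oxidative phosphorylation genes had a median of 0.01, with 3 of 28 higher and 9 lower, such as Sdha (-0.42 ± 0.08) and Atp5b (-0.68 ± 0.09). Iron handling genes rose in 4 of 11 cases and fell in 2, with the transferrin receptor gene Tfrc at 1.36 ± 0.12 and the phagosomal transporter gene Slc11a1 at -0.79 ± 0.11.

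Of 27 cell cycle genes 4 rose, 2 fell and 21 did not pass. Mki67, the proliferation marker, was at 24.1 to 51.3 CPM (median 42.7) in cDC1 and 26.7 to 66.7 CPM (median 38.98) in moDC (log2 change 0.06 ± 0.22, adjusted p = 0.86). On 01.05.2016 alone Mki67 was lower in moDC (-0.48, adjusted p = 0.025), while 9 of the 27 genes of the list rose and 4 fell. The list median on that date was 0.22. Top2a, a topoisomerase of dividing cells, rose by 0.50 ± 0.16. Immediate early and stress genes rose in 12 of 20 cases and fell in 1. Fos, a component of AP-1, was at 957 to 3715 CPM (median 1754) and 1465 to 4465 CPM (median 2574), a log2 change of 0.47 ± 0.10, Atf3 rose by 1.71 ± 0.14 and Ier3 by 2.33 ± 0.24. Hspa1a, a heat shock chaperone, differed by date in both cell types: it was at 612, 858 and 1487 CPM in cDC1 and 709, 972.4 and 1839.9 CPM in moDC on 10.26.2015, and at 16.7, 19.1 and 22.9 CPM and 18.9, 24.9 and 26.1 CPM on 01.05.2016.

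The 12 largest falls among genes of at least 10 CPM without overlap held several of less known function. Pcsk5, a proprotein convertase, was at 4.96 to 26.04 CPM (median 17.3) in cDC1 and had no count in the 6 moDC libraries, at least 531-fold lower (moDC limit 3 counts over the group). Gpr141b, an orphan receptor gene, was at 458 to 884 CPM (median 667) in cDC1 and 1.37 to 7.90 CPM (median 2.79) in moDC (log2 change -7.52 ± 0.25). The lectin gene Clec4b2 (-8.30 ± 0.33), the collagen hydroxylase gene P3h2 (-8.06 ± 0.33), the WNT modulator gene Dkk3 (-8.05 ± 0.67) and the orphan receptor gene Gpr33 (-7.70 ± 0.38) fell as well. In the other cell types of B6g7, on the scale of the 47 libraries, Gpr141b was low, with medians of 0.263 CPM in cDC2, 0.669 CPM in monocytes and 0.7096 CPM in pDC. Gramd2, Gm11837, Mab21l3, Arhgap42, the sort marker Cd8a and 1 transcript without a gene symbol completed the 12.

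Among the 12 largest rises were genes of lipid handling and of phagocytes. Fabp4, a fatty acid carrier of macrophages, was at 0 to 0.315 CPM (median 0.0505) in cDC1 and 11.96 to 277 CPM (median 107) in moDC (log2 change 10.32 ± 0.39). Apoc2, the cofactor of lipoprotein lipase, was at 0 to 0.661 CPM (median 0.118) and 24.7 to 551 CPM (median 173), a log2 change of 10.28 ± 0.31. In moDC both were lower in each library of 01.05.2016 than in any of 10.26.2015, and all 6 lay above all cDC1 libraries. Sirpb1c was at 0.407 to 4.46 CPM (median 0.587) and 200.1 to 417 CPM (median 305.7), a log2 change of 8.10 ± 0.39. S1pr5, a sphingosine receptor that lets patrolling monocytes leave the marrow, rose by 7.43 ± 0.59, the myeloid receptor gene Trem3 by 8.51 ± 0.53, Cd209b, a lectin gene of marginal zone macrophages, by 7.47 ± 0.51, the stress gene Nupr1 by 7.41 ± 0.33, haptoglobin (Hp) by 7.25 ± 0.62 and the lipase inhibitor gene G0s2 by 7.60 ± 0.55. Clec4e, Osm and Ms4a2 completed the 12. Ms4a2, the IgE receptor β chain, had no count in cDC1 and was at 22.2, 24.98 and 55.8 CPM on 10.26.2015 and 0.0473, 1.37 and 3.89 CPM on 01.05.2016.

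Markers of other lineages were set beside these values. Of the B cell list 8 of 10 rose and 2 fell, with Cd79a at 1.10 to 9.37 CPM (median 3.51) in cDC1 and 10.03 to 109 CPM (median 32.1) in moDC (log2 change 3.34 ± 0.58). The change was 3.57 on 10.26.2015 and 3.21 on 01.05.2016. Plasma cell genes rose in 6 of 7 cases, and Jchain, the joining chain of antibodies, was at 196, 211 and 1739 CPM and 26.9, 108 and 246 CPM in moDC by date and at 0.393 to 48.4 CPM (median 1.046) in cDC1, with overlap. Cd3e, of the T cell receptor complex, was at 0.235 to 3.46 CPM (median 1.65) in moDC and 0 to 0.151 CPM (median 0.0509) in cDC1. S100a8, abundant in neutrophils, was at 0.0473 to 72.7 CPM (median 5.38) in moDC and 0 to 2.54 CPM (median 0.197) in cDC1 and did not pass (adjusted p = 0.066), and the haemoglobin gene Hbb-bs did not pass either (adjusted p = 0.98). Platelet markers (3 of 5 higher, 1 lower) summed to 19.5 to 28.6 CPM in cDC1 and 7.43 to 33.3 CPM in moDC. The pDC list was mixed, with 4 of 13 higher and 6 lower, and its summed level overlapped (400.1 to 504.4 CPM and 373.9 to 634.2 CPM). The part of such cells in the moDC levels was not tested.

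The difference between the sort dates was tested for each gene. The change between moDC and cDC1 differed between 10.26.2015 and 01.05.2016 for 687 genes (5.75%) in the quasi-likelihood test and for 6 in the 2-fold test. Leaving out 1 library moved the count of 687 to between 245 and 1572, the highest without moDC replicate 1. The median change of the cDC1 list was -4.35 and -4.56 on these dates. That of the monocyte and macrophage list was 4.01 and 2.91, and that of the interferon-stimulated list 0.78 and 0.81. On 01.05.2016 alone, 24 of 29 monocyte and macrophage genes rose and 4 fell, and 19 of 19 cDC1 genes fell. Over all 11571 genes tested on that date, 2334 were higher and 2308 lower in moDC. No gene named with a log2 change that passed reversed its direction on either date alone, though these genes had passed over the same libraries.

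**Figure D5:**
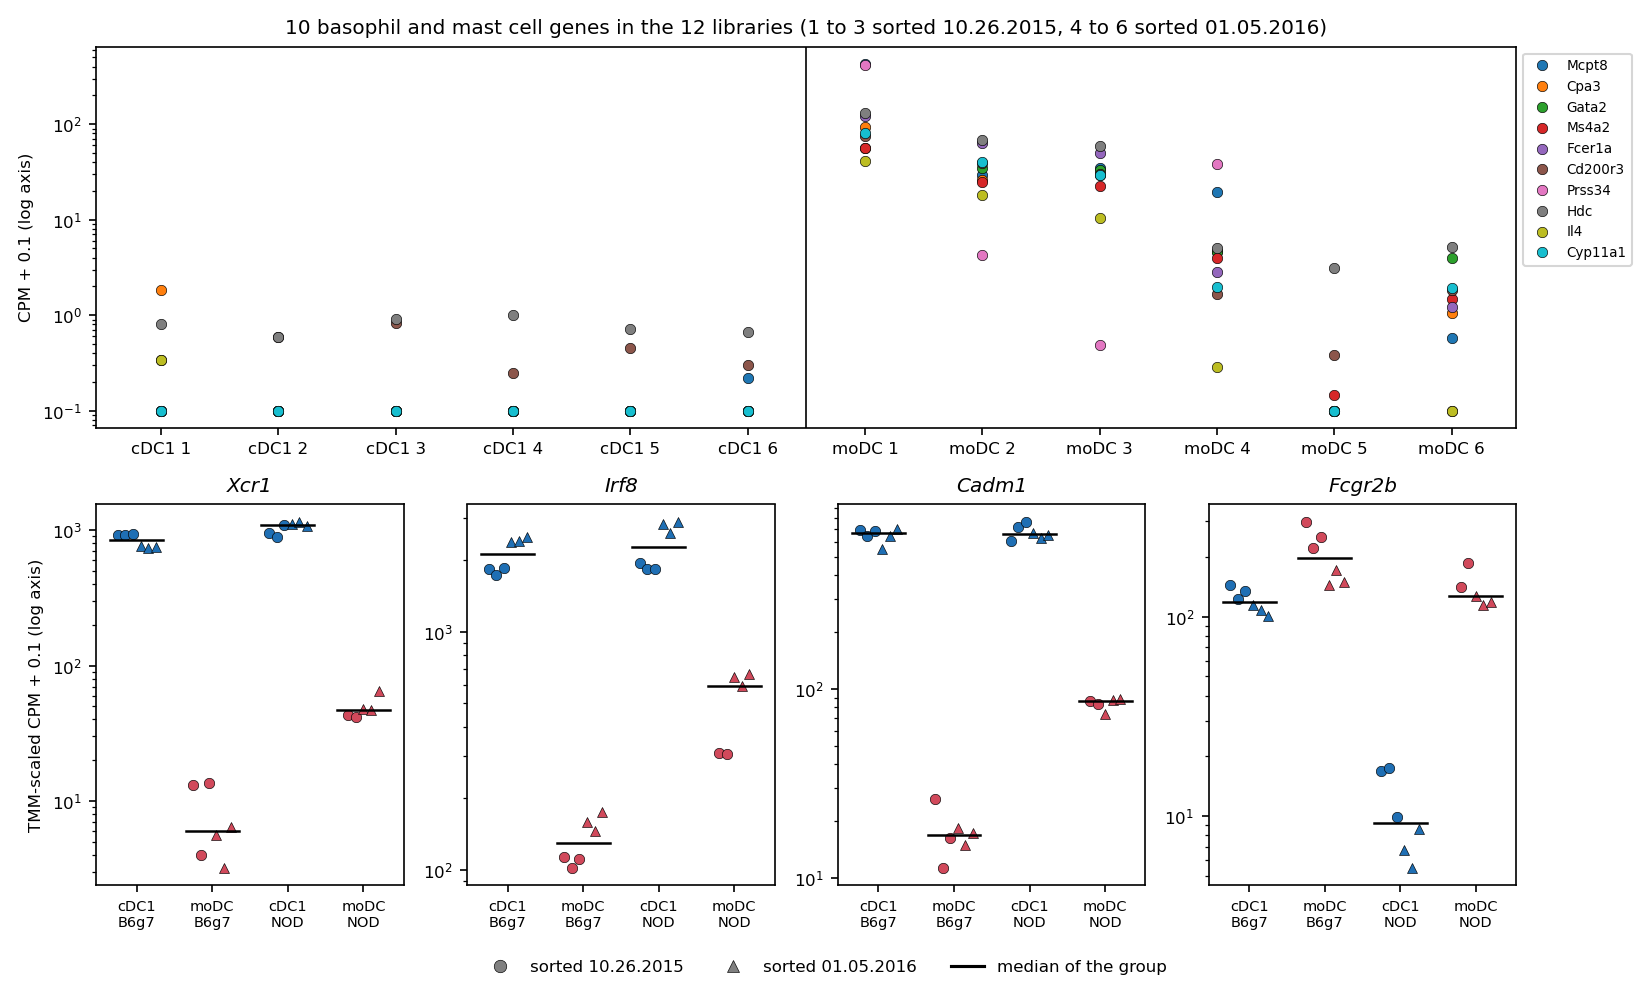
Top: level of 10 basophil and mast cell genes in each of the 12 libraries, in CPM plus 0.1 on a log axis, with moDC replicates 1 to 3 highest. Bottom: Xcr1, Irf8, Cadm1 and Fcgr2b in cDC1 and moDC of B6g7 and NOD, in CPM plus 0.1 on log axes. Each point is 1 library, its shape gives the sort date and the bar is the group median. The first 3 genes are higher in moDC of NOD than of B6g7, while Fcgr2b is lower in cDC1 of NOD.

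Whether the moDC to cDC1 difference itself depended on strain was asked with the 6 cDC1 and 5 moDC libraries of NOD mice, which are diabetes-prone and were sorted on the same dates. Levels in this comparison are on the scale of the 47 libraries. Of 12696 genes in the fit of 23 libraries, 100 differed between strains in the 2-fold test (0.788%), 65 with a positive value (0.512%), meaning a change more towards moDC in NOD, and 35 negative (0.276%). The plain test passed 866 genes (6.82%). In the cDC1 list 12 of 19 strain differences were positive in the plain test and 0 negative, with a median of 1.53. Irf8 had a difference of 1.66 ± 0.12 (2-fold test adjusted p = 3.0e-04), with 307 to 667 CPM (median 593) in moDC of NOD (n = 5) and 1825 to 2892 CPM (median 2269) in cDC1 of NOD. In moDC of B6g7 on the same scale it was at 102 to 176 CPM (median 129). Xcr1 (2.40 ± 0.34, adjusted p = 0.011) and Cadm1 (2.21 ± 0.17, adjusted p = 1.1e-05) behaved likewise, with moDC of NOD at 41.3 to 64.3 CPM (median 46.5) and 73.8 to 88.0 CPM (median 85.9). These moDC libraries of NOD lay above those of B6g7 and far under any cDC1 library.

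Fcgr2b had a difference of 3.06 ± 0.21 (adjusted p = 1.5e-07), and here the cDC1 libraries differed by strain: it was at 5.36 to 17.2 CPM (median 9.11) in cDC1 of NOD and 101.1 to 144 CPM (median 118) in cDC1 of B6g7. In moDC it was at 115 to 185 CPM (median 126) in NOD and 144 to 299 CPM (median 196) in B6g7, with overlap. Fcrla, an Fc receptor-like gene of B cells, had the highest positive value (5.97 ± 0.69), with 3.84 to 27.01 CPM (median 8.86) in cDC1 of NOD and 69.4 to 90.8 CPM (median 73.6) in cDC1 of B6g7. In moDC it was at 11.4 to 87.9 CPM (median 26.8) in NOD and 0.523 to 12.2 CPM (median 4.48) in B6g7, with a slight overlap. The B cell gene Cd79a had medians of 293 CPM in moDC and 68.6 CPM in cDC1 of NOD, against 35.97 and 3.95 CPM in B6g7. Fcrla was also at 618 to 695 CPM in pDC of B6g7. The pDC gene Siglech had medians of 19.1 CPM in moDC and 26.3 CPM in cDC1 of NOD, against 0.777 and 35.5 CPM in B6g7. The part of B cells or of pDC in the Fcrla values was not tested. Il12b had a difference of 3.87 ± 0.77, with 8.95 to 22.8 CPM (median 13.9) in cDC1 of NOD and 109.7 to 202 CPM (median 132) in cDC1 of B6g7. The other large positive values were those of Gramd2 (5.08 ± 0.53), of Scel, a protein of the cornified envelope (4.85 ± 1.07), of the angiopoietin-like gene Angptl7 (4.49 ± 1.00), of the WNT receptor gene Fzd1 (4.43 ± 0.45) and of Qpct, which forms pyroglutamate at protein ends (3.996 ± 0.51). The most negative were those of Fcer1a (-12.85 ± 2.64), Gata2 (-12.48 ± 2.33) and Il4 (-10.13 ± 1.74), 3 of the 10 basophil and mast cell genes. Their size depends on the prior count, since cDC1 of B6g7 held few or no counts of them. On the earlier sort date alone, the differences were -13.22 for Fcer1a, -12.79 for Gata2 and -13.24 for Il4. On the later date alone only Gata2 had a value (-11.53), so Fcer1a and Il4 could not be checked there. In moDC of B6g7 the 10 basophil and mast cell genes summed to 324.4 to 1643 CPM on the earlier date and 3.71 to 90.7 CPM on the later. In moDC of NOD they summed to 5.91 to 37.2 CPM (n = 2) and 2.86 to 8.07 CPM (n = 3). Clec4e (-6.93 ± 1.38), G0s2 (-5.01 ± 0.97) and Nxpe5 (-3.61 ± 0.63) followed. When each of the 23 libraries was left out in turn, the calls of Scel, Angptl7, Fcer1a, Il12b and Clec4e were lost in 18, 17, 16, 16 and 9 cases, with adjusted p-values up to 0.13, 0.17, 0.12, 0.095 and 0.068. Those of G0s2 and Il4 were lost in 2 cases and 1, and those of Irf8, Xcr1, Cadm1, Fcgr2b, Fcrla, Gramd2, Fzd1, Qpct, Gata2 and Nxpe5 in none. Il4 had enough counts to be tested in only 20 of the 23 fits. With the sort date left out of the model, the calls of Cadm1, Fcgr2b, Fcrla, Gramd2 and Qpct held, with adjusted p-values up to 0.030. Those of the other 12 were lost, among them Irf8 (adjusted p = 0.46), Xcr1 (0.090), Fzd1 (0.0997), Gata2 (0.11) and Nxpe5 (0.10). Csf1r (0.504 ± 0.37, adjusted p = 0.51) did not pass the plain test of the strain difference.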

How the data were processed

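RNA was extracted with PicoPure columns, amplified with the SMART-seq v4 kit over 14 PCR cycles and sequenced on a NextSeq 500 as 150 bp paired-end reads, which were demultiplexed with bcl2fastq v2.17.1.14, per the labels' protocols. The deposited table of the authors holds expected counts per RefSeq transcript, estimated with RSEM per the submitters' processing notes, which also name limma; versions, genome build and annotation were not given in those notes or in the other sources used here. Library totals lie within 0.047 of whole numbers, although 48.2% of the entries above 0 are fractional (by over 0.01).

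Of 35070 transcripts, 34710 were given a gene name from RefSeq and 360 kept their accession. Expected counts were summed to 24520 genes and rounded, of which 19197 had a count. Genes with at least 1 CPM in at least 3 of the 12 libraries were kept (11943). edgeR 4.0.16 in R 4.3.3 was used with TMM factors, the sort date as a block and the robust quasi-likelihood test, and with its test against a log2 change of 1 for the 2-fold test. The Benjamini-Hochberg adjustment ran over all genes, with a threshold of 0.05. The biological coefficient of variation was 23.2%, with 9 residual degrees of freedom. The strain difference was the interaction term in 23 libraries, 6 and 6 of B6g7 and 6 and 5 of NOD, with sort date. The plain edgeR fit of moDC against cDC1 was tested on simulated counts of the same genes. The 2-fold test and the fits of the strain and date differences were not. DESeq2 1.42.0 and limma 3.58.1, other scalings and filters, fits without the date or with the replicate number as block, each date alone and each library left out were tried as alternatives. Without distinct molecule tags, counts of low genes carry amplification error that the floor of 3 counts over a group does not cover.

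The members, lists and tests were chosen with earlier results of these data known. The text names the markers, a list of key genes, the 12 largest falls and rises among genes that passed the 2-fold test without overlap at a mean of at least 10 CPM in the higher group, the leading changes of each list, and the 6 largest strain differences in each direction. Treml4, H2-K1, H2-D1, the genes of basophils and mast cells and the test of the difference between dates were added after values were seen. A few genes that these rules name are not reported here. Promoter sequences are from RefSeq on GRCm38.p6 and cover 9532 of the 11943 genes.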

Additional observations from a re-analysis of the deposited data

Results flagged for a closer look

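Among 324 sets of 6 libraries (each gene given a log2 change, in each cell type), 22 had a library that stood far from the other 5. The rule flags about 1 in 20 sets when 6 values are drawn from the same normal distribution. That rate need not hold here, since each set spans both sort dates and some genes are near 0 CPM. In cDC1, replicate 1 was the highest library for Adgre1 (22.8 CPM), C1qa (39.6 CPM), Clec4a3 (7.08 CPM), Clec4a4 (5.59 CPM), Fabp4 (0.315 CPM), Fcgr1 (4.96 CPM) and Rtp4 (7.48 CPM). In moDC, replicate 1 was the highest for C1qa (109 CPM), Cd207 (3.96 CPM), Dkk3 (1.78 CPM) and Spic (92.7 CPM). Replicate 5 of cDC1 stood apart for Alox5 (7.83 CPM), C5ar1 (0.458 CPM), Cd209b (0.305 CPM) and Trem1 (1.17 CPM), replicate 2 for Apoc2 (0.661 CPM) and Sirpb1c (4.46 CPM), replicate 3 for G0s2 (1.05 CPM), replicate 4 for Sqle (46.7 CPM) and replicate 6 for Gusb (810.1 CPM). The remaining libraries were moDC replicate 5 for Gusb (106 CPM) and moDC replicate 3, the lowest, for Oas2 (14.1 CPM).

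The change between moDC and cDC1 differed between NOD and B6g7, past the 2-fold test, for 27 of the genes named. Positive differences (NOD minus B6g7, log2) were found for Fcrla (5.97), Gramd2 (5.08), Scel (4.85), Angptl7 (4.49), Fzd1 (4.43), Qpct (3.996), Il12b (3.87), Siglech (3.85), Gpr141b (3.69), Clec4b2 (3.59), Gcsam (3.52), P3h2 (3.37), Rab7b (3.14), Fcgr2b (3.06), Septin3 (2.94), Tlr12 (2.69), Xcr1 (2.40), Cadm1 (2.21), Cd14 (1.73) and Irf8 (1.66). Negative ones were found for Fcer1a (-12.85), Gata2 (-12.48), Il4 (-10.13), Clec4e (-6.93), G0s2 (-5.01), Nxpe5 (-3.61) and H2-Eb2 (-2.63). Between the sort dates, Ccl6 differed in the 2-fold test, by -1.86 on the log2 scale (01.05.2016 minus 10.26.2015).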

How the results depend on the processing

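The count of 5535 genes between moDC and cDC1 fell to 2621 when the sort date was left out of the model, and the 2-fold count of 1492 to 1092. Under the other scalings, filters and tools, with each date alone and in the fit of 47 libraries, the counts ran from 4396 to 6424 and from 1251 to 1732. With each library left out they ran from 5073 to 5473 and from 1417 to 1455. Whether replicate numbers shared by the cell types pair the libraries is not given by the labels. The deviations of same-numbered libraries correlated weakly, by 0.0018 to 0.168, and those of other pairs of a date by -0.147 to 0.0259. On 01.05.2016 each same-numbered pair stood above all other pairs, while on 10.26.2015 they overlapped. A fit with the replicate block passed 5079 genes, 5007 of them shared, and 1441 in the 2-fold test; among the genes named it moved the call of Il6. The count of 100 strain differences became 25 without the date in the model, 45 on 10.26.2015 alone and 866 in the plain test, and 84 to 106 with each library left out. The 687 date differences became 245 to 1572 with each library left out. Of 162 genes given a log2 change, 155 passed, and none of these reversed under any alternative. Calls were lost for 21 of them without the sort date in the model, 6 on 10.26.2015 alone and 5 on 01.05.2016 alone. At most 2 were lost under any other setting. Genes that had not passed changed sign in places. H2-K1 was at 0.0045 without scaling, Cd40 was at 0.17 and Mki67 at -0.48 on 01.05.2016 alone. With each library left out, H2-K1 ranged from -0.126 to 0.0231, Irf7 from -0.0571 to 0.112 and Mki67 from -0.10 to 0.24. The strain difference of Csf1r was -0.53 on 10.26.2015 alone. The medians of 5 of 42 lists near 0 (MHC class II, cross-presentation, glycolysis, oxidative phosphorylation and pDC markers) changed sign in some settings. The causes were not tested. The higher share of calls moved from 47.5% to 55.8% without scaling, where the median gene moved to 0.06. List medians were the same with genes lacking a count in 1 group at their lower bound. Depth limits the lowest genes: those under the filter were not tested.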
